A study of Homo sapiens with 6 samples.

Results

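The Hippo pathway and its transcriptional output were followed through 10 genes, which are YAP1, WWTR1, TEAD1, TEAD3, LATS1, LATS2, CCN1, CCN2, ANKRD1 and AMOTL2. They were chosen by name, as the rows of the deposited table on the primary chromosomes that carry these gene names, and all 10 were found among the 67130 genes of the table. RNA was sequenced from hTERT-RPE1, a telomerase-immortalized human cell line derived from retinal pigment epithelium, into which lentivirus had brought a doxycycline-inducible (Tet-On) shRNA that targets OFD1, a centriole and centriolar satellite protein. The 3 control samples grew without doxycycline and the 3 OFD1-depleted samples with 200 ng/mL doxycycline, which switches the shRNA on, each for 72 h in medium with serum. The controls are labelled WT but belong to the same shRNA line, hTERT-RPE1-TOShOFD1, as the samples labelled OFD1 knockdown, so all 6 carry the construct. By the study's methods infected cells were kept under drug selection, and whether a clone was picked is not given in the sources used here. No sample analysed here received doxycycline without the OFD1 shRNA, so loss of OFD1, effects of the shRNA on other mRNAs and doxycycline itself cannot be told apart.

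In the Hippo pathway, a kinase cascade holds the transcriptional coactivators YAP (gene YAP1) and TAZ (gene WWTR1) out of the nucleus. STK3 and STK4 activate LATS1 and LATS2, which phosphorylate YAP and TAZ, so that these are retained in the cytoplasm or degraded. When the cascade is off, YAP and TAZ enter the nucleus and bind DNA through the TEAD factors, and genes such as CCN1, CCN2, ANKRD1 and AMOTL2 are transcribed. The state of the actin cytoskeleton is a known input to YAP and TAZ. Their activity is set largely through phosphorylation and location, which mRNA levels do not show.

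The values are FPKM, fragments mapped to a gene scaled to its transcript length and to all mapped fragments of the sample. Read counts are not part of the table. OFD1 itself was at 3.34, 3.62 and 3.44 FPKM in control against 0.795, 0.763 and 1.43 FPKM after depletion, 28.7% of the control mean. The 12025 genes whose 6 values averaged 1 FPKM or more, all 10 Hippo pathway genes among them, were compared as log2(FPKM + 0.1) with limma, with Benjamini-Hochberg adjustment over all genes tested and a threshold of 0.05. A fold change on this scale understates the change of low genes. Of the genes tested, 1429 passed with lower and 610 with higher levels after depletion, against 1988 lower and 268 higher when all samples were scaled to the same total (TPM) and 1311 lower and 1093 higher after quantile normalization, and 1732 lower and 2024 higher once each sample's trend on transcript length and GC was removed. The median of all genes was at -0.032 on the log2 scale, and at -0.176 after TPM scaling. Mitochondrially encoded genes held 8.66% to 13.8% of the summed FPKM in control and 15.6% to 19.3% after depletion. With these genes left out and all samples scaled to the same total, the log2 difference was -1.37 for YAP1 and 0.89 for ANKRD1, against -1.32 and 0.95 as deposited. OFD1-depleted replicate 2 stood apart from the other samples. Its median absolute deviation from its group mean was 0.2 on the log2 scale, against 0.0742 to 0.132 in the others, and its deviations from the mean of all 6 samples had a slope of -0.167 per doubling of mRNA length, against slopes between 0.019 and 0.0534 in the other 5 samples. In the fifth of the genes with the longest mRNAs (5520 bases or more), this replicate lay below replicates 1 and 3 by a median of -0.43 on the log2 scale, and in the fifth with the shortest mRNAs it lay above them by 0.34. Of 10 retinal pigment epithelium markers, RPE65, RLBP1, TYR and RAX were below 0.5 FPKM in all samples, and PMEL was at 0.627 FPKM or less. MITF averaged 5.39 FPKM in control and 6.94 FPKM after depletion, and OTX2 1.66 and 1.94 FPKM. BEST1 was at 4.33 FPKM in OFD1-depleted replicate 2 and at 0.0475 FPKM or less in the others. The epithelial keratins KRT8 and KRT18 averaged 146 and 116 FPKM in control, and 178 and 159 FPKM after depletion. Of the 10 markers, 4 were tested, and all 4 had positive log2 differences. None of them passed the threshold, with KRT18 nearest (0.44, limma adjusted p = 0.0548). All 8 photoreceptor, all 6 blood cell and all 5 endothelial markers were below 0.5 FPKM in every sample.

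Of the 10 genes, 4 passed the limma threshold, 3 lower and 1 higher. Over all genes tested, 17.0% passed, 11.9% as lower and 5.07% as higher. YAP1, WWTR1 and CCN1 fell in OFD1-depleted cells, and ANKRD1 rose. The values of the groups did not overlap in 7 of the 10 genes, against 36.1% of all genes tested. The median log2 fold change of the 10 genes was 0.18. The number that passed was 2 without any 1 of the 3 control replicates or without OFD1-depleted replicate 3, and 6 without OFD1-depleted replicate 2. The count over all 12025 genes tested moved the same way. It was 2039 with all samples, 1111 to 1473 where 2 of the 10 genes passed, and 2818 where 6 passed.

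**Figure D1:**
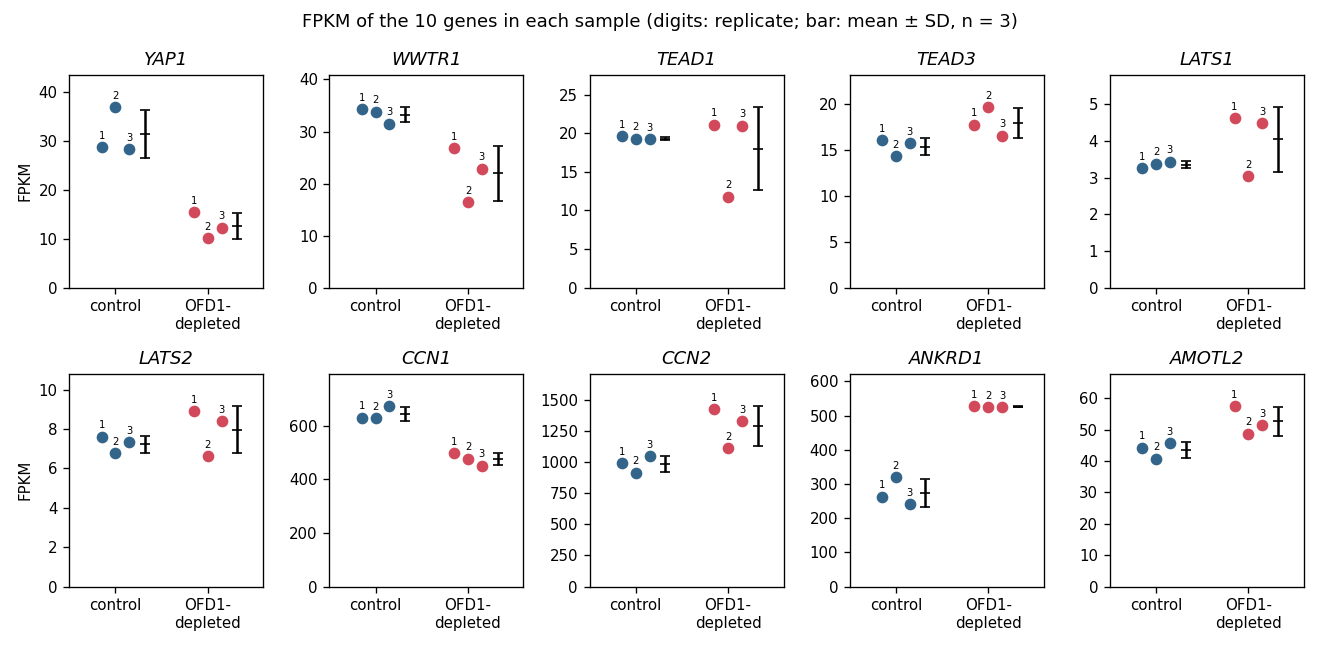
FPKM of each of the 10 genes (vertical axes from 0) in the 3 control and 3 OFD1-depleted samples, with the replicate number above each point and the mean ± SD (n = 3) beside it. YAP1 and WWTR1 lie lower and ANKRD1 higher in all OFD1-depleted samples, and OFD1-depleted replicate 2 is the lowest of all 6 samples for TEAD1, LATS1 and LATS2.

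YAP1 encodes the coactivator YAP and showed the largest change of the 10 genes. It lies on the + strand of chromosome 11 from 102110447 to 102233424 (GRCh38, ENSG00000137693) and has a canonical mRNA of 5401 bases in 9 exons. Its level was 28.8, 36.9 and 28.3 FPKM in control against 15.4, 10.2 and 12.3 FPKM after depletion. Every OFD1-depleted sample lay below every control sample. The mean fell from 31.4 ± 4.85 FPKM to 12.6 ± 2.65 FPKM (SD, n = 3 each), so that 40.3% of the control level remained. The log2 fold change was -1.32 (SE 0.172, limma adjusted p = 0.000406), and -1.28 relative to the median of all genes. Without each sample in turn it stayed between -1.47 and -1.17, with a limma adjusted p of at most 0.00493. Bulk RNA does not tell a fall in every cell from a loss in some cells. An antisense transcript, AP001527.2, overlaps YAP1 and had 2.91 FPKM in control and 1.53 FPKM after depletion on average. How reads were assigned by strand is not given in the sources used here, so reads of this pair may be shared.

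WWTR1 encodes TAZ, the paralog of YAP (chromosome 3 from 149517235 to 149736714, - strand). Its level was 34.3, 33.8 and 31.5 FPKM in control and 26.8, 16.4 and 22.9 FPKM after depletion, again with no overlap. The mean fell from 33.2 ± 1.46 to 22.0 ± 5.25 FPKM (SD, n = 3 each), with a log2 difference of -0.62 (SE 0.171, limma adjusted p = 0.0297). The lowest value came from replicate 2, the sample with the trend on mRNA length, and the mRNA of WWTR1 is 5037 bases long. Without this replicate the log2 fold change was -0.42 (limma adjusted p = 0.0249), and with the trend on length and GC content taken out of each sample it was -0.50. The call was lost without control replicate 1, 2 or 3 (limma adjusted p = 0.0931, 0.088 and 0.0748) and without OFD1-depleted replicate 3 (0.0533).

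In control cells both coactivators were at a similar level per length, with a YAP1 to WWTR1 ratio of 0.841, 1.09 and 0.898. In OFD1-depleted cells the ratio was 0.577, 0.622 and 0.537. A ratio taken within a sample does not depend on how samples are scaled against each other. It differed by -0.70 on the log2 scale with no overlap of the groups (exact permutation test, two-sided, p = 0.1, the smallest that 3 against 3 samples allow, and 0.167 after adjustment over the 5 ratios compared). The sum of both coactivators was 64.6 ± 5.61 FPKM in control and 34.6 ± 7.84 FPKM after depletion (SD, n = 3 each), a sum formed after the values were seen and not tested.

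The TEAD factors are the DNA-binding partners of YAP and TAZ, and all 4 of the family were expressed. None of the 4 passed the threshold, and the directions of TEAD1 and TEAD4 turned under some alternatives, as with OFD1-depleted replicate 2 left out (0.12 and 0.02 on the log2 scale). TEAD2 and TEAD3 stayed positive under all 19 alternatives, and both passed only with the trend on length and GC content taken out (limma adjusted p = 0.0247 and 0.00925). TEAD1 (chromosome 11 from 12674421 to 12944737, + strand) had 19.6, 19.3 and 19.2 FPKM in control and 21.1, 11.8 and 21.0 FPKM after depletion. Replicates 1 and 3 lay above all controls and replicate 2 below them, and the mRNA of TEAD1 (9417 bases) is longer than that of 95.5% of the genes tested. Its log2 fold change was -0.16 (SE 0.203, limma adjusted p = 0.652). TEAD3 (chromosome 6 from 35473597 to 35497079, - strand, mRNA of 2986 bases) had 16.0, 14.3 and 15.7 FPKM in control and 17.7, 19.6 and 16.5 FPKM after depletion. These groups did not overlap, but the difference of 0.22 (SE 0.129) did not pass the threshold (limma adjusted p = 0.272). TEAD2 was at 6.18 and 7.36 FPKM and TEAD4 at 9.33 and 8.91 FPKM, in control and OFD1-depleted samples. Summed over the 4 genes, TEAD mRNA was 50.2 ± 2.62 FPKM in control and 52.1 ± 4.26 FPKM after depletion (SD, n = 3 each). The ratio of YAP1 plus WWTR1 to the TEAD sum was 1.22, 1.5 and 1.16 in control and 0.762, 0.561 and 0.654 in OFD1-depleted samples, a ratio that was also formed after the values were seen and not tested.

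LATS1 and LATS2 encode the kinases that phosphorylate YAP and TAZ, and neither passed the threshold. LATS1 (chromosome 6 from 149658153 to 149718105, - strand) was the lowest of the 10 genes, with 3.25, 3.38 and 3.43 FPKM in control and 4.61, 3.03 and 4.48 FPKM after depletion. LATS2 (chromosome 13 from 20973036 to 21061586, - strand) had 7.61, 6.76 and 7.33 FPKM in control and 8.89, 6.63 and 8.40 FPKM after depletion. For both genes, replicates 1 and 3 lay above all controls and replicate 2 below them. The log2 fold changes were 0.24 (SE 0.189, limma adjusted p = 0.439) for LATS1 and 0.13 (SE 0.151, limma adjusted p = 0.61) for LATS2. Without OFD1-depleted replicate 2 the difference of LATS1 was 0.43 (limma adjusted p = 0.0477) and that of LATS2 was 0.26 (limma adjusted p = 0.14). Under TPM scaling LATS2 turned to -0.02. The LATS1 to LATS2 ratio ranged from 0.427 to 0.5 in control and from 0.457 to 0.533 in OFD1-depleted samples, which overlap.

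CCN2, CCN1 and ANKRD1 are the targets most often used to read YAP and TAZ activity. CCN1 (CYR61) and CCN2 (CTGF) encode secreted matricellular proteins, and ANKRD1 encodes a nuclear and sarcomeric ankyrin repeat protein. The 250 bases before the transcription start of CCN2 and ANKRD1 are printed here because their mean levels were higher where that of YAP1 was lower, and the YAP1 promoter follows. Sequences are from RefSeq (GRCh38.p14), read 5′ to 3′ on the strand of the gene. Capitals mark the core of the TEAD motif, GGAATG, searched on both strands. The windows are chr6:131951373-131951622 (- strand) for CCN2, chr10:90921088-90921337 (- strand) for ANKRD1 and chr11:102110197-102110446 (+ strand) for YAP1.
CCN2: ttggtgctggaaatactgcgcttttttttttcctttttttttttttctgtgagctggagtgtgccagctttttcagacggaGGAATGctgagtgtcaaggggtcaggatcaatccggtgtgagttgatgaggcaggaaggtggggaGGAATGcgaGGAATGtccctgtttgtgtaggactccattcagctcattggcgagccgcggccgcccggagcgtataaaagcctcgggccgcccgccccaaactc
ANKRD1: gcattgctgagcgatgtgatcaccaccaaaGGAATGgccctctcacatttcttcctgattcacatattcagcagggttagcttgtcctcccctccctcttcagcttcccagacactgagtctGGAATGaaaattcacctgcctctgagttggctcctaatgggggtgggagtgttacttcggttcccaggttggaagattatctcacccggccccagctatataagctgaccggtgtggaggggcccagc
YAP1: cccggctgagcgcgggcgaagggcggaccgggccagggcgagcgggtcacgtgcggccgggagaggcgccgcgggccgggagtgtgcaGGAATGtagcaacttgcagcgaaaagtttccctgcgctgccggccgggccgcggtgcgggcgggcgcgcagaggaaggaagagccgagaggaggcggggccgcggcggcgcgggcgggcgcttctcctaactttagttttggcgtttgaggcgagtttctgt

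CCN2 holds 3 matches, whose first bases lie at -169, -104 and -95 from the transcription start, ANKRD1 holds 2, at -220 and -128, and YAP1 holds 1, at -162. Of the 35116 promoters in the same table, 11.9% have at least 1 match in a window of this length, 0.94% at least 2 and 0.0826% at least 3. Of the 10 genes, 8 were found in that table with 11 promoters, and CCN1 and TEAD1 were not. AMOTL2 has 1 match on the opposite strand in the second of its 2 promoters, and WWTR1, TEAD3, LATS1 and LATS2 have none. The AP-1 motif was searched as TGANTCA, with any base allowed at N, a form that reads the same on both strands. This form is present in 6.57% of promoters. It was found in ANKRD1, where it reads TGATTCA, and in the second of the 2 LATS1 promoters. A match describes the letters only and shows no binding.

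**Figure D2:**
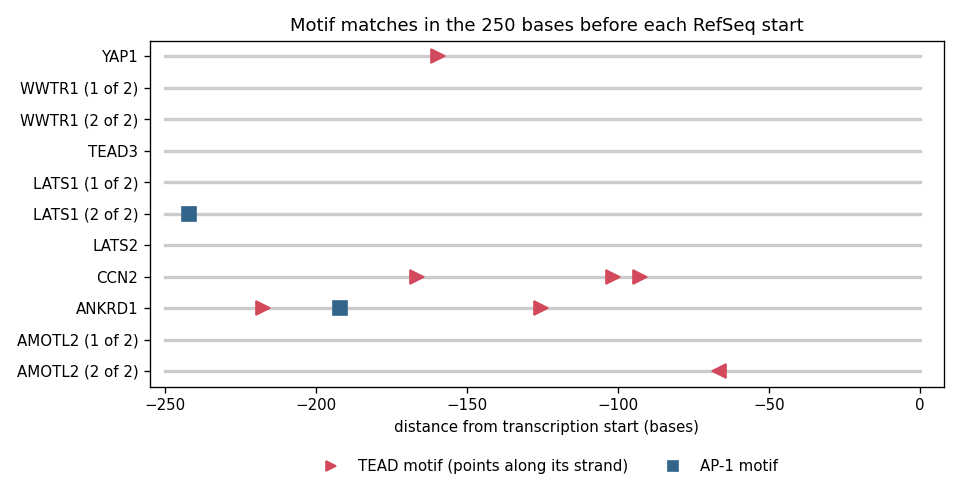
Matches to the TEAD and AP-1 motifs (symbols) in the 250 bases before each RefSeq transcription start of 8 of the 10 genes, by distance from the start in bases. CCN2 carries 3 TEAD matches and ANKRD1 2, and WWTR1, TEAD3 and LATS2 carry none of either motif.

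ANKRD1 (chromosome 10 from 90912096 to 90921087, - strand, mRNA of 1790 bases) had 263, 320.1 and 240.5 FPKM in control and 528, 525 and 525 FPKM after depletion. The OFD1-depleted values lay within a narrow range far above the controls. The mean rose from 275 ± 41.0 to 526 ± 1.91 FPKM (SD, n = 3 each), or to 192% of control, with a log2 difference of 0.95 (SE 0.144, limma adjusted p = 0.0011). Leaving out single samples, the change stayed between 0.86 and 1.06, and over all 19 alternatives the limma adjusted p was at most 0.0256. ANKRD1 rose as YAP1 fell, with a difference relative to the median of all genes of 0.98 for ANKRD1 and -1.28 for YAP1.

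CCN2 (chromosome 6 from 131948176 to 131951372, - strand) had 992, 917 and 1048 FPKM in control and 1427, 1115 and 1333 FPKM after depletion. The groups did not overlap, and replicate 2 was the lowest of the OFD1-depleted samples. Means were 986 ± 65.6 and 1292 ± 160.1 FPKM (SD, n = 3 each), and the log2 fold change of 0.38 (SE 0.155) did not pass the threshold (limma adjusted p = 0.116). Without OFD1-depleted replicate 2 it was 0.49 (limma adjusted p = 0.0173), and over the alternatives the limma adjusted p ranged from 0.00783 to 0.58. The antisense transcript AL133346.1 overlaps CCN2, at 8.66 FPKM in control and 11.7 FPKM after depletion.

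CCN1 (chromosome 1 from 85580761 to 85584589, + strand) had 630.4, 629 and 674 FPKM in control and 499, 478 and 451 FPKM after depletion. All OFD1-depleted values lay below the controls. The mean fell from 645 ± 25.7 to 476 ± 23.9 FPKM (SD, n = 3 each), to 73.8% of control, with a log2 difference of -0.44 (SE 0.132, limma adjusted p = 0.0423). This call is close to the threshold. It was lost without control replicate 1, 2 or 3 (limma adjusted p = 0.164, 0.0578 and 0.185) and without OFD1-depleted replicate 1 or 3 (0.0932 and 0.122), with the log2 fold change between -0.47 and -0.40 in all of these comparisons.

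CCN1 and CCN2, both targets of YAP and TAZ, have mRNAs of like length (2278 and 2338 bases), and their means differed between groups in opposite directions. The CCN1 to CCN2 ratio was 0.635, 0.686 and 0.643 in control and 0.350, 0.428 and 0.339 in OFD1-depleted samples. The log2 ratio differed by -0.82 with no overlap (exact permutation, p = 0.1, adjusted 0.167). CCN2 exceeded ANKRD1 in every sample. The CCN2 to ANKRD1 ratio was 3.77, 2.87 and 4.36 in control and 2.70, 2.12 and 2.54 in OFD1-depleted samples, a difference of -0.56 (p = 0.1 by the same exact test, adjusted 0.167). The TEAD1 to TEAD3 and LATS1 to LATS2 ratios differed by -0.38 and 0.11 and overlapped between groups (exact p = 0.4 and 0.3). AMOTL2, an angiomotin family scaffold that binds YAP and is itself a target, had 44.3, 40.7 and 45.6 FPKM in control and 57.5, 48.7 and 51.5 FPKM after depletion (chromosome 3 from 134355347 to 134375479, - strand). Its groups did not overlap, but the difference of 0.27 (SE 0.124) did not pass the threshold (limma adjusted p = 0.17).

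By level per length, the order in control was CCN2, CCN1, ANKRD1, AMOTL2, WWTR1, YAP1, TEAD1, TEAD3, LATS2 and LATS1. Only the neighbours WWTR1 and YAP1 overlapped between samples in this order. CCN2 and CCN1 exceeded 99.7% and 99.4% of the genes tested in control FPKM, and LATS1 exceeded 23.3%. In OFD1-depleted cells ANKRD1 lay above CCN1 in all 3 samples, where CCN1 had been higher in all 3 controls, and YAP1 lay below TEAD3 in all 3 samples, where it had been higher in all 3 controls. WWTR1, TEAD1 and TEAD3 overlapped one another in OFD1-depleted samples, and so did TEAD1 and YAP1.

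The other genes of the pathway were read from lists drawn up by function, with earlier results of these data known. In the list of TEADs and TEAD cofactors, 3 of 8 genes tested fell and no gene rose, a share of 37.5% against 17.0% of all genes tested. The share is a description, since YAP1 and WWTR1 are among the 10 genes. The third, beside YAP1 and WWTR1, was VGLL4, which competes with YAP for TEAD binding. VGLL4 had 16.8, 15.0 and 15.6 FPKM in control and 7.31, 5.71 and 7.26 FPKM after depletion. All 3 lay below the controls, with a log2 difference of -1.22 (SE 0.143, limma adjusted p = 0.00022) and a limma adjusted p of at most 0.00722 over the alternatives. VGLL3, another TEAD cofactor, was at 12.5 ± 1.42 and 14.7 ± 3.27 FPKM (SD, n = 3 each) and did not pass, except without OFD1-depleted replicate 2 among the samples left out (0.41, limma adjusted p = 0.0396). VGLL1 was at 0 in all samples and VGLL2 was below the level tested.

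Among 18 kinases and kinase adaptors of the cascade that were tested, 3 fell, none rose and 15 did not pass, with a median log2 fold change of 0.06. The share that passed, 16.7%, is close to the 17.0% of all genes tested, so the count is no result about the cascade as a group. STK4, which encodes the upstream kinase MST1, had 6.90, 7.07 and 6.96 FPKM in control against 4.54, 3.37 and 4.29 FPKM after depletion, all lower, with a log2 difference of -0.77 and a limma adjusted p of 0.00622. Its paralog STK3 differed by 0.14 (limma adjusted p = 0.612), a direction that turned to -0.01 under TPM scaling. MOB1A and MOB1B, the adaptors that activate LATS kinases, fell together. The log2 difference was -0.63 for MOB1A (limma adjusted p = 0.00908) and -0.91 for MOB1B (limma adjusted p = 0.0134, and 0.0651 without control replicate 2). The scaffold SAV1 differed by 0.08 (limma adjusted p = 0.742), and by -0.07 under TPM scaling. Without OFD1-depleted replicate 2, 7 genes of this list passed, 3 as lower and 4 as higher. Of all 12025 genes tested, 2818 passed in that comparison. With the trend on length and GC taken out, 3 of the list passed as lower and 6 as higher, when 3756 of 12000 genes passed.

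Of 17 tested genes in a list of membrane, junction and other upstream inputs, 2 rose, 2 fell and 13 did not pass. This is a share of 23.5% against 17.0% of all genes tested. Under TPM scaling none of the 17 passed as higher (NF2 0.38 and FRMD6 0.47, limma adjusted p = 0.0513 and 0.106) and 3 passed as lower, with PTPN14 added (limma adjusted p = 0.0497). NF2, which encodes the upstream regulator Merlin, had 22.6, 21.6 and 21.3 FPKM in control against 33.2, 31.8 and 29.9 FPKM after depletion, all higher, with a log2 difference of 0.53 and a limma adjusted p of 0.0108. FRMD6, a FERM domain protein upstream of the kinases, rose by 0.62 (limma adjusted p = 0.0274). WWC2, a relative of KIBRA, and RASSF1, a scaffold of STK3 and STK4, fell (-0.83 and -0.47, limma adjusted p = 0.0272 and 0.034). None of these 4 calls held without control replicate 1 (limma adjusted p = 0.0511, 0.0794, 0.0732 and 0.0629 in this order) or control replicate 3 (0.0597, 0.114, 0.0676 and 0.145), and the list then had 0 genes past the threshold. Without control replicate 2 it had 1, NF2, and without OFD1-depleted replicate 3 it had 2, NF2 and WWC2. Other alternatives added calls. Without OFD1-depleted replicate 2, 4 passed as higher and 2 as lower, with FRMD6 at 0.81 (limma adjusted p = 0.00126). Of all 12025 genes tested, 2818 passed in that comparison. With the trend on length and GC taken out, 7 of the list passed as higher and 3 as lower, when 3756 of 12000 genes passed. AMOTL1 differed by -0.28 (limma adjusted p = 0.249) and AMOT was below the level tested. Among 15 antagonists of LATS and of STK3 and STK4, only STRN, a subunit of a phosphatase complex, passed (-0.94, limma adjusted p = 0.0272), a share of 6.67%. It was lost without any control replicate or without OFD1-depleted replicate 1 (limma adjusted p from 0.0509 to 0.0923). Without OFD1-depleted replicate 2 there were 3 antagonists past the threshold, 1 lower and 2 higher. Among 13 genes of YAP and TAZ turnover and cytoplasmic retention, only YWHAQ passed (-0.50, limma adjusted p = 0.026), a share of 7.69%. There were 2 under TPM scaling, and YWHAQ passed in the comparison without OFD1-depleted replicate 2 alone of the 6 that left out a sample.

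**Figure D3:**
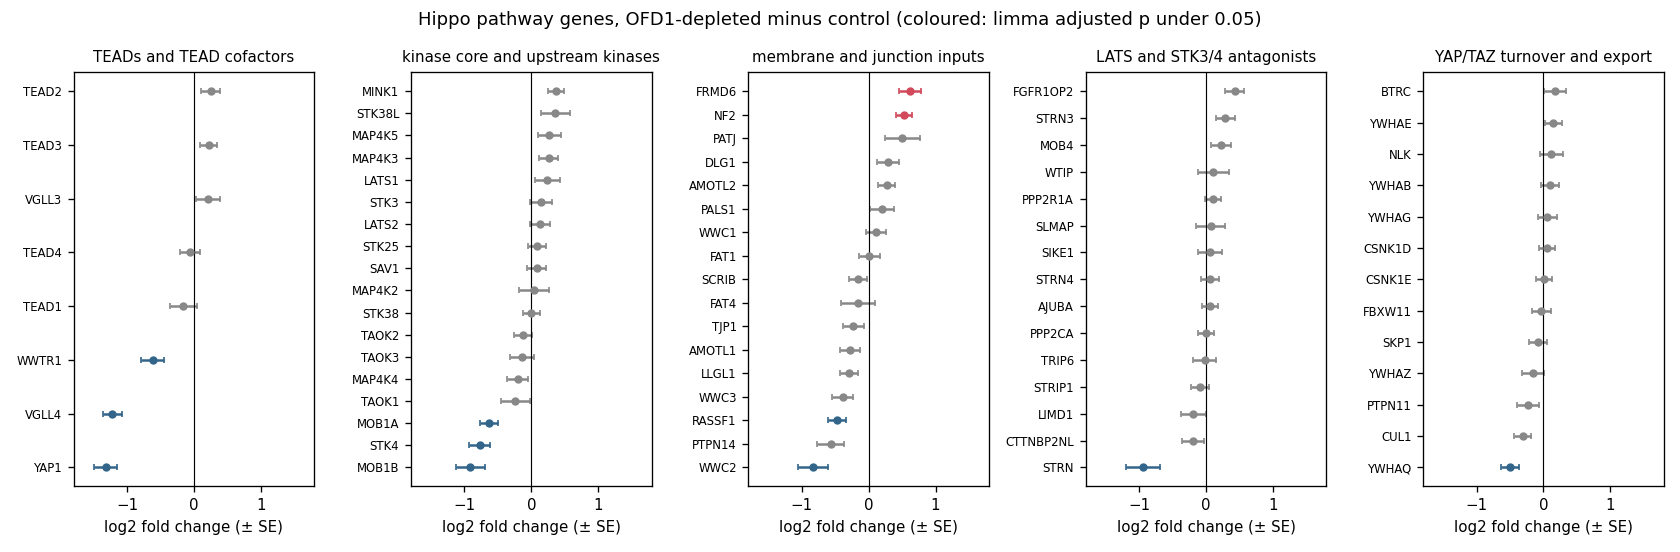
Log2 fold change ± SE (horizontal axis, OFD1-depleted minus control) of the tested genes in 5 lists of the Hippo pathway, coloured where the limma adjusted p-value was under 0.05. YAP1 (-1.32), VGLL4 (-1.22), MOB1B (-0.91) and STRN (-0.94) lie furthest to the left, and FRMD6 (0.62) and NF2 (0.53) are the genes past the threshold to the right, which neither passed under TPM scaling.

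A signature of 22 YAP and TAZ target genes was tested in full, of which CCN1, CCN2, ANKRD1, AMOTL2 and LATS2 are members of both lists. Of the 22, 4 rose, 2 fell and 16 did not pass, with a median log2 fold change of 0.10 against -0.032 over all genes. The share that passed was 27.3%, against 17.0% of all genes tested. It is a description, since ANKRD1 and CCN1, which passed, belong to the 10 genes. The balance of directions depends on the scaling. Under TPM scaling 2 passed as higher and 4 as lower, with a median of -0.05 against -0.176 over all genes, since NUAK2 and TGFB2 lost their calls (limma adjusted p = 0.0626 and 0.0694) and FOXF2 (-0.69) and PTPN14 (-0.71) passed as lower (limma adjusted p = 0.0277 and 0.0497). Under median-of-ratios scaling 5 passed as higher and 1 as lower, and with the trend on length and GC taken out 11 as higher and 4 as lower. Beside ANKRD1, the genes that rose were NUAK2, a kinase related to AMPK, TGFB2, a TGF-β ligand, and GADD45A, a stress-induced growth arrest gene. NUAK2 rose from 3.02 ± 0.368 to 4.98 ± 0.396 FPKM (SD, n = 3 each), with a log2 difference of 0.71 (limma adjusted p = 0.0134). TGFB2 rose by 0.62 (limma adjusted p = 0.0136), and GADD45A by 0.56 (limma adjusted p = 0.0185). CRIM1, which encodes a membrane protein that binds BMP ligands, fell further than CCN1. Its level was 157, 136 and 157 FPKM in control and 84.4, 52.4 and 81.5 FPKM after depletion, with a log2 difference of -1.07 (limma adjusted p = 0.00205). The genes that did not pass included RBMS3 (0.57), F3 (0.26), CCDC80 (0.21) and NT5E (0.12) with positive values, and PTPN14 (-0.57), FOXF2 (-0.54), ASAP1 (-0.29), IGFBP3 (-0.25) and AXL (-0.19) with negative values. The values of MYOF (0.07), FJX1 (0.08), ARHGEF17 (-0.01) and DOCK5 (-0.08) lay nearest to 0, and LATS2, NT5E and these 4 changed sign under some alternatives. Without control replicate 2 or 3 the number past the threshold was 3 (1 lower and 2 higher in each), and without OFD1-depleted replicate 2 it was 10 (3 lower, 7 higher). Of all 12025 genes tested, 1473, 1111 and 2818 passed in these comparisons, in this order. ANKRD1 and CRIM1 passed in all 6 comparisons without a sample. NUAK2 was lost without control replicate 2 (limma adjusted p = 0.054), GADD45A without control replicate 1 or 3 or OFD1-depleted replicate 1 (0.0819, 0.0804 and 0.051), and TGFB2 without control replicate 2 or 3 or OFD1-depleted replicate 1 (0.0531, 0.0522 and 0.0581).

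CCN1, CCN2 and ANKRD1 are also targets of MRTF and SRF, the actin-regulated transcription factor pair. In a list of 18 MRTF and SRF targets, 17 genes were tested, 5 rose, 1 fell (CCN1) and 11 did not pass, with a median of 0.38. As shares these are 29.4% higher and 5.88% lower, against 5.07% and 11.9% of all genes tested. The shares are a description, since ANKRD1, 1 of the 5 that rose, and CCN1 are among the 10 genes. After quantile normalization the median was 0.13, against 0.045 over all genes, with 6 genes past the threshold as higher and 1 as lower. Under TPM scaling 3 passed as higher and 1 as lower, with SRF (0.37) and TAGLN (0.40) lost (limma adjusted p = 0.081 and 0.0593). ACTA2, which encodes smooth muscle actin, rose from 238 ± 21.6 to 632 ± 85.7 FPKM (SD, n = 3 each), with a log2 difference of 1.40 (limma adjusted p = 0.000104, at most 0.00925 over the alternatives). ZYX, a focal adhesion protein, rose by 0.62 (limma adjusted p = 0.0124), SRF itself by 0.52 (limma adjusted p = 0.0217) and TAGLN, an actin-binding protein, by 0.55 (limma adjusted p = 0.0423). TAGLN was named after its values were seen. The number past the threshold fell to 2 without control replicate 1 and to 3 without control replicate 3 or OFD1-depleted replicate 1. OFD1-depleted replicate 2 was the highest sample for ACTA2, ZYX and TAGLN (729.6, 565 and 422 FPKM), though not for SRF. Without it the log2 differences were 1.29, 0.52, 0.38 and 0.50 in this order, all still past the threshold. The list median was then 0.29, with 7 genes passing as higher and 1 as lower, when 2818 of all 12025 genes tested passed. ZYX was lost without control replicate 1 or 3 (limma adjusted p = 0.0628 and 0.0548), SRF without control replicate 1 or 2 or OFD1-depleted replicate 1 (0.0832, 0.0777 and 0.07), and TAGLN without any control replicate or OFD1-depleted replicate 1 (0.0636 to 0.155), whereas ACTA2 passed without each of the 6 samples. Of 6 fibroblast markers, 3 were tested, and COL1A1 rose (1.48). DCN (1.03) also passed the threshold, but it met the filter of 1 FPKM only through its OFD1-depleted values. Its mean was 0.869 FPKM in control and 1.87 FPKM after depletion, so its call is not counted as a result. PDGFRA, the third, differed by -0.14 (limma adjusted p = 0.696). The summed level of the 6 lay between 11.3 and 13.6 FPKM in control and between 25.9 and 33.5 FPKM after depletion. Of this sum, COL1A1 alone averaged 8.68 FPKM in control and 24.4 FPKM after depletion. COL1A2, COL3A1 and LUM stayed below 0.5 FPKM in all samples. The part of these fibroblast markers in the values of the target genes was not tested.

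**Figure D4:**
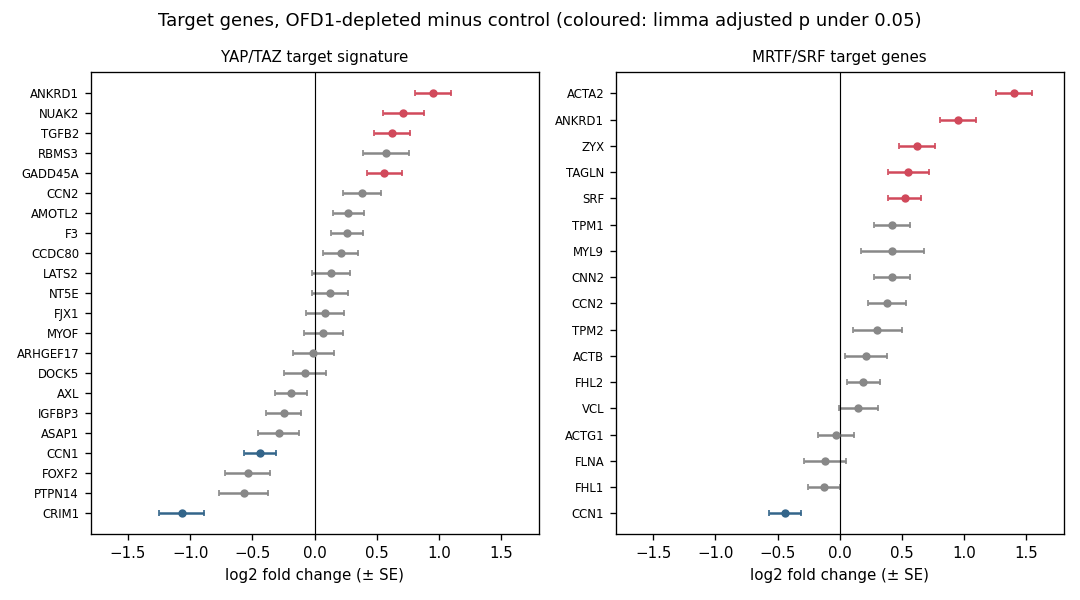
Log2 fold change ± SE (horizontal axis, OFD1-depleted minus control) of 22 YAP and TAZ target genes and of 17 tested MRTF and SRF target genes, coloured where the limma adjusted p-value was under 0.05. Of the YAP and TAZ targets 4 lie past the threshold to the right and 2, CRIM1 and CCN1, to the left (2 and 4 under TPM scaling), and ACTA2 (1.40) is the furthest right among the MRTF and SRF targets.

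The genes outside the 10 whose log2 values followed YAP1 most closely over the 6 samples were POLE3 (Pearson r = 0.9998), CCNA2 (0.9992), PTGFR (0.9985), MTAP (0.9985) and KLF6 (0.9982). All 5 fell, with log2 differences from -1.56 to -0.98, which follows from picking them by their likeness to YAP1 and is no separate result. Those closest to CCN2 were COL5A2 (0.9964), EOGT (0.9962), ADORA2B (0.9957), ACVR1 (0.9939) and MICAL2 (0.9938), of which MICAL2 passed the threshold (0.67, limma adjusted p = 0.0222). These correlations describe 6 libraries from 2 conditions and were picked as the highest among the genes tested.

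**Figure D5:**
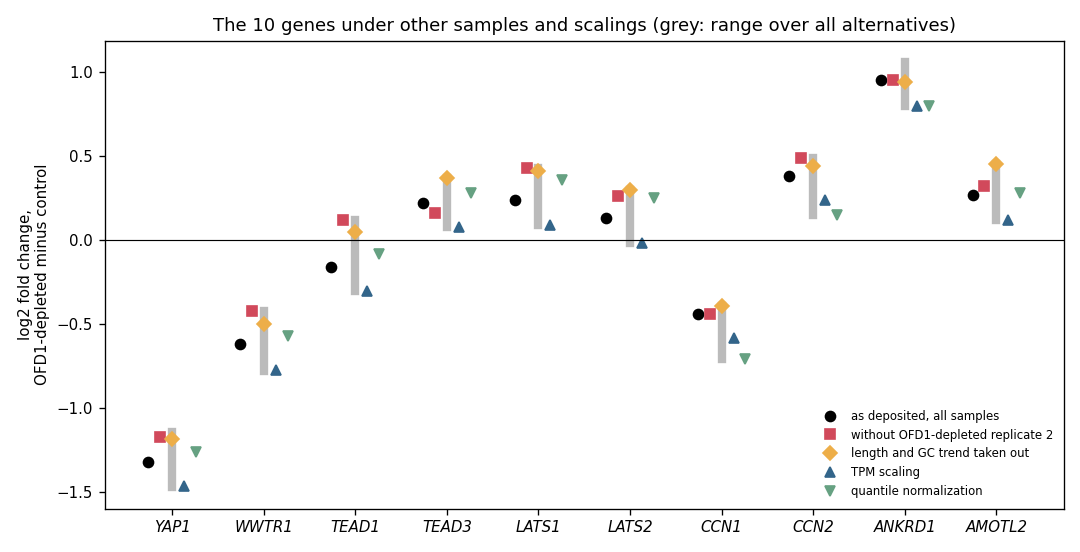
Log2 fold change (vertical axis, OFD1-depleted minus control) of the 10 genes with all samples as deposited (black), under 4 of the alternatives (coloured) and over the range of all alternatives (grey bars). YAP1 stays between -1.47 and -1.14 and ANKRD1 between 0.80 and 1.06, while TEAD1 and LATS2 span 0.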

How the data were processed

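RNA-seq of 6 samples was analysed, 3 control and 3 OFD1-depleted, grouped by the sample titles. By the study's methods, paired-end reads of directional libraries were aligned with HISAT2 (version 2.0.5 in the submitters' processing notes) to GRCh38, and the authors deposited FPKM per gene from StringTie. The strand setting and the version of StringTie are not given in the sources used here. The labels name 2 library kits and an extraction from retinas, whereas the samples are a cell line. The study calls the samples biological replicates, which the labels do not detail further, and the p-values measure the spread between these samples. Depth in reads is unknown, since the table holds no counts, so precision rests on the replicates.

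The genes whose samples averaged 1 FPKM or more were compared as log2(FPKM + 0.1) with limma 3.58.1 (R 4.3.3, trend of variance on mean, two-sided, Benjamini-Hochberg over all genes tested). The fit was tried on simulated data with independent noise for each gene. Those data held no trend shared by many genes, such as that of OFD1-depleted replicate 2 on mRNA length, so they do not cover it. Ratios were compared by exact permutation (scipy 1.17.1). Transcript lengths and GC content came from GENCODE 44 canonical transcripts, matched by gene ID for 12000 of 12025 genes, and promoters from RefSeq. PALS1 was matched to MPP5, its name in the table.

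Genes named are the 10 genes, OFD1, in each list the top 4 by p-value at most among those past the threshold, the TEAD, VGLL, STK3, STK4, NF2, SAV1 and angiomotin genes, the target signature, and the 5 genes most correlated with YAP1 and with CCN2. The 10 genes and the lists were chosen with earlier results of these data known. Alternatives were other pseudocounts (1 and 0.01), filters and scalings, limma without trend or with array weights, the replicate block, protein-coding genes alone and each sample left out. TPM without mitochondrially encoded genes and removal of the trend on length and GC content were added after the data were seen.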

Additional observations from a re-analysis of the deposited data

How the results depend on the processing

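Across 19 alternatives, YAP1 and ANKRD1, with VGLL4, STK4, MOB1A, CRIM1 and ACTA2, kept their direction and their side of the threshold throughout. WWTR1 lost its call in 6 and CCN1 in 8 of them, without a change of direction. The number of genes that passed was 1083 without a filter (823 lower, 260 higher), 3956 with array weights (2263 lower, 1693 higher) and 3756 with the length and GC trend taken out (2024 higher), and the number higher was 268 after TPM scaling and 1093 after quantile normalization. Of the 10 genes, 2 passed without a filter and 2 with limma without trend (1 lower in each), 7 with array weights (4 higher) and 9 with the length and GC trend taken out (6 higher). The samples of both groups are numbered alike, but deviations from the group means correlated at only 0.0579, 0.0481 and 0.011 between samples with the same number, and not every sample correlated best with its own number. With the replicate block 2296 genes passed, 1945 of them among the 2039 without it, and 5 of the 10 genes (2 higher), with CCN2 (limma adjusted p = 0.0385) added.

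With each sample left out in turn, 1111 to 2818 genes passed (867 to 1741 lower, 244 to 1077 higher), and 2 to 6 of the 10 genes (1 to 3 lower, 1 to 3 higher). The highest numbers came without OFD1-depleted replicate 2. The log2 differences of the ratios ranged from -0.78 to -0.59 (YAP1 to WWTR1), -0.58 to -0.03 (TEAD1 to TEAD3), 0.05 to 0.18 (LATS1 to LATS2), -0.93 to -0.76 (CCN1 to CCN2) and -0.73 to -0.43 (CCN2 to ANKRD1). Signs turned in 27 values of 10 genes, and in none of these was the change past the threshold as deposited. They were LATS2 (-0.02), STK3 (-0.01), SAV1 (-0.07), MYOF (-0.08), FJX1 (-0.07) and NT5E (-0.03) under TPM scaling, ARHGEF17 (0.05) under median-of-ratios scaling, and TEAD4 (0.04), NT5E (-0.06), DOCK5 (0.03) and ARHGEF17 (0.08) after quantile normalization. Others were TEAD1 (0.05) and FJX1 (-0.08) with array weights, and TEAD1 (0.05), TEAD4 (0.02), DOCK5 (0.15) and ARHGEF17 (0.30) with the length and GC trend taken out. With each sample left out in turn, TEAD1 ranged from -0.30 to 0.12, TEAD4 from -0.17 to 0.02, MYOF from -0.05 to 0.25, FJX1 from -0.06 to 0.16, DOCK5 from -0.18 to 0.10 and ARHGEF17 from -0.15 to 0.12. The causes were not tested.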
